A study of Mus musculus with 12 samples.

Results

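Chromatin around the genes of a blood transcription factor complex was examined in hematopoietic stem cells (HSCs) of young and aged mice. The genes were Gata2, Tal1, Lyl1, Lmo2 and Ldb1. Regions were chosen by position, around genes and by rules that were set with earlier results of these data known. Peak summits with a score of 3 or more in any of 12 ATAC-seq summit lists were widened by 250 bp on each side and merged, and a region was taken when its highest summit lay in one of the gene bodies or within 80 kb of it. This gave 84 of 71006 regions, with 19 at Gata2, 17 at Tal1, 19 at Lyl1, 18 at Lmo2 and 11 at Ldb1.

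The HSCs had been sorted from the bone marrow of C57BL/6 mice of 4 groups with 3 libraries each, namely WT at 3 months (Young WT), Mlkl-/- at 3 months (Young Mlkl-/-), WT at 18 months (Aged WT) and Mlkl-/- at 18 months (Aged Mlkl-/-). The labels name no treatment. Mlkl encodes the pseudokinase that executes necroptosis, an inflammatory form of cell death. Several mice were pooled for each library, more of them for a young one, and animals of both sexes were used in the study. ATAC-seq marks open DNA by the insertions of a transposase. In such bulk data a region open in fewer cells and a region less open in each cell cannot be told apart.

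GATA2 is a zinc finger factor that binds GATA words in DNA. TAL1 and LYL1 are related basic helix-loop-helix factors that bind E-boxes together with E proteins such as those of Tcf3 and Tcf12. LMO2 binds no DNA and bridges the GATA and helix-loop-helix proteins, and LDB1 joins the complex through LMO2 and can bring distant elements together by pairing with itself. The complex is needed for the formation and upkeep of HSCs and also binds elements at its own genes. Several of these elements have been named by their distance in kb from a transcription start, among them the -77, -3.9, -2.8, -1.8 and +9.5 elements of Gata2 and the -4 and +40 elements of Tal1. Here regions are named in the same way, by the distance of their highest summit from the outermost annotated start, with positive distances downstream.

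The deposited lists held 36805 to 63125 summits and no read counts, so that the depth was unknown. With a score of at least 3, 35714 to 56368 summits remained in young and 47032 to 61495 in aged lists. Each list was therefore cut to its 35714 summits of highest score before calls were compared between groups. Summits within 1 kb of the starts of 4 Y chromosome genes were found in 3 of 6 young and 0 of 6 aged lists. A summit within 1 kb of the start of Mlkl was present in 2 lists of Young WT, in 3 of Young Mlkl-/-, in 1 of Aged WT and in 2 of Aged Mlkl-/- (3 lists each), and open chromatin at a start does not test a deletion inside the gene. Among HSC markers, the starts of Kit and Hlf carried a summit in all 12 lists, Procr in 6, Ly6a in 2, Fgd5 and Hoxb5 in 1, and Slamf1 and Mecom in 0. No start was marked in any list for 4 of 5 B cell, 3 of 4 T cell, 4 of 5 myeloid and 2 of 3 stromal and endothelial markers, nor for the erythroid genes Klf1 and Hbb-bt. Ebf1 and Epor were marked in all 12 lists and Col1a1 in 9, and the 3 megakaryocyte markers Pf4, Gp9 and Itga2b were marked in all 12 lists.

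The sequences below are selected windows. They include those at the -77 and +9.5 elements of Gata2 and the -4 and +40 elements of Tal1. The region matched to the -3.9 element of Gata2 is not printed. Also shown is the Lyl1 region of highest rank near its own start. The Lmo2 regions are that with the highest change with age and that of highest rank. All sequences are mm10 plus strand. Capitals mark words found by a search of either strand. The GATA word was AGATAA, also accepted with T as its first letter. The E-box was CANNTG, which is not capitalised when alone. The GATA-E-box composite was an E-box followed after 7 to 9 bases by the letters GATAA. The word for ETS factors was AGGAAGT. The word for RUNX factors was TGTGGTT. Where the highest summits of the 12 lists were spread, 300 bases are shown, and otherwise 201 bases centred on the highest summit. The windows of 300 bases do not hold the highest summit of every list.
Gata2 -76.8 kb (chr6:88116887-88117186): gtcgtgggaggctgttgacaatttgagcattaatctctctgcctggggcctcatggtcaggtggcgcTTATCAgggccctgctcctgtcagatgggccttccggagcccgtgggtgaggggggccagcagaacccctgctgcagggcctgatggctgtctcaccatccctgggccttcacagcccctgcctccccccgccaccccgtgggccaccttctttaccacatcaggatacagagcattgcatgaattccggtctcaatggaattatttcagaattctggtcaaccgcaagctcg
Gata2 +9.3 kb (chr6:88203105-88203305): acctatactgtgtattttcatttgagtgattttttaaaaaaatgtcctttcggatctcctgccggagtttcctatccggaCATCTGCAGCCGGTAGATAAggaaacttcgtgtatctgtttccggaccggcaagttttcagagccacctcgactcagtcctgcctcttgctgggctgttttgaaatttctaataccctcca
Tal1 -3.6 kb (chr4:115052723-115052923): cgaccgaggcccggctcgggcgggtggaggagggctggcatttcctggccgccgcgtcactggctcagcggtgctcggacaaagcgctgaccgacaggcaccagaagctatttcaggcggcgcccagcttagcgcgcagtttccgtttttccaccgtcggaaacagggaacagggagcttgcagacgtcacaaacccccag
Tal1 +39.6 kb (chr4:115095779-115096078): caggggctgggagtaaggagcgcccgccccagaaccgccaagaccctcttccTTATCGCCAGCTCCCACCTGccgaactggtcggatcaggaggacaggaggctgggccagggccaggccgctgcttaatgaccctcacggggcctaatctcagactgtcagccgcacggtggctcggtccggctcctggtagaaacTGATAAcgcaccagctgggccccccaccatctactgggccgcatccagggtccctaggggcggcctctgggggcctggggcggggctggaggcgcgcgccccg
Lyl1 -1.4 kb (chr8:84699949-84700149): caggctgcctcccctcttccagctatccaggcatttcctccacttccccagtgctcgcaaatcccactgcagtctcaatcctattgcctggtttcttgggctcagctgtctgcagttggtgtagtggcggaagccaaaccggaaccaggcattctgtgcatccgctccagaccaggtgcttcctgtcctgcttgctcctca
Lmo2 -27.1 kb (chr2:103930822-103931022): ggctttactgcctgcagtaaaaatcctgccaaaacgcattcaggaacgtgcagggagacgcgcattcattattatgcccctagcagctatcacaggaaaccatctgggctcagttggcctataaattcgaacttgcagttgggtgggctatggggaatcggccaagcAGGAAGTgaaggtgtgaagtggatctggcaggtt
Lmo2 -12.0 kb (chr2:103945875-103946075): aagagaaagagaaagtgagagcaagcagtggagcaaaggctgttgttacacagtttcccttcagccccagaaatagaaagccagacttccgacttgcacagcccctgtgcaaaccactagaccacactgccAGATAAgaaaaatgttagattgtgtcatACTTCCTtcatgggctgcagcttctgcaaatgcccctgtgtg

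The number of these regions called did not separate the ages. In lists of equal length, 27 of the 84 regions (32.1%) were called in all 12 lists, beside 21.9% of all regions. A single list of equal length held 51.2 to 63.1% of the 84 regions, beside 40.04 to 43.5% of all regions. Such a list held 48.7 ± 1.53 of the 84 regions for Young WT and 47.3 ± 5.13 for Young Mlkl-/-. It held 47 ± 3 for Aged WT and 49 ± 3.46 for Aged Mlkl-/- (SD, n = 3). The 4 groups overlapped. The deposited lists held 53.7 ± 3.21, 55.7 ± 12.1, 61.7 ± 6.11 and 62.7 ± 8.5 of them in the same order. These lists differ in length, and a single one held 51.2 to 82.1% of the 84 regions, beside 40.04 to 68.95% of all regions. By the annotation the highest summit was intergenic in 45 regions, intronic in 26, in a UTR in 10 and in a coding exon in 3. It lay within 1 kb of the start of another gene in 15 regions, and a gene of the complex had the nearest protein-coding start in 38.

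**Figure D1:**
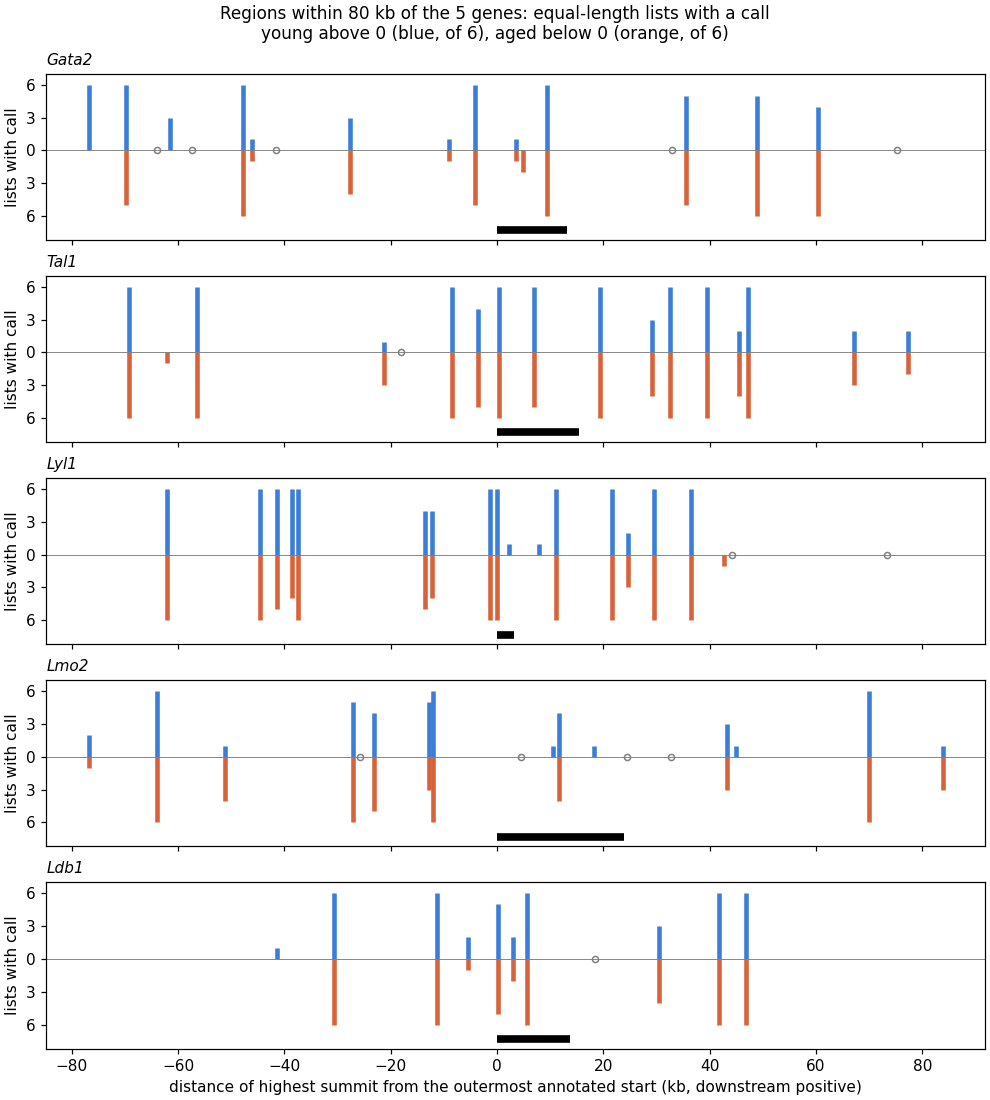
Calls in lists of equal length at the 84 regions. The x axis gives the distance of each region's highest summit from the outermost annotated start in kb, blue bars above 0 the number of young lists (of 6) and orange bars below 0 the number of aged lists (of 6) with a call. Open circles are the 13 regions called in no list of equal length and black bars the gene bodies. The leftmost region at Gata2 has 6 young and 0 aged calls.

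Of the 84 regions, 59 were called in at least 3 lists of equal length and were tested (70.2%, beside 53.4% of all regions). They were 10 at Gata2, 15 at Tal1, 14 at Lyl1, 11 at Lmo2 and 9 at Ldb1. Of the 25 others, 13 were called in no list of equal length. The measure compared was the normal score of a region's rank within its list, which is a relative rank and not accessibility itself. A region without a call took a value between -0.57 and -0.52, depending on the list.

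With age, over both genotypes, 1 of the 59 regions passed the test and 58 did not. It was the distal Gata2 region at -76.8 kb, with lower values in aged libraries. This region had met the minimum of 3 lists through young lists only, so that the filter bears on its p, which is given as a description. The threshold was an adjusted p under 0.01 (limma, Benjamini-Hochberg over all 37886 regions tested), which 2.72% of all regions passed. The share of the 59 regions with an unadjusted p under 0.05 was 10.2%, beside 22.1% of all regions. Their median change was -0.03, beside -0.01 over all regions, and 27 of the 59 changes were above 0. In WT alone 0 regions passed (0.201% of all regions), with 3 at an unadjusted p under 0.05 (5.08%, beside 14.6% of all regions). In Mlkl-/- alone 0 passed (0.15% of all regions), with 5 at an unadjusted p under 0.05 (8.47%, beside 14.4% of all regions).

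The Gata2 region at -76.8 kb spans chr6:88116224-88117399 and is intergenic. Its nearest protein-coding start is that of Rpn1, 32635 bp away. It lies 0.23 kb from the position of the -77 element, a distal enhancer known to drive Gata2 in myeloid progenitors. Its rank among the regions of the deposited list was 20250, 12756 and 27021 in Young WT and 18581, 27783 and 24810 in Young Mlkl-/-. In Aged WT the ranks were 41788, 35651 and 34667, and in Aged Mlkl-/- they were 46863, 31852 and 38734. All 6 young libraries ranked it higher than all 6 aged libraries.

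The region was present in all 12 deposited lists and passed the filter for testing through young lists only. Cut to equal length, 6 of 6 young lists and 0 of 6 aged lists kept it. The aged library nearest to the cut, Aged Mlkl-/- 2, ranked it at 31852, while its list of equal length held 30359 regions. The normal score was 0.51 ± 0.24 in young and -0.55 ± 0.02 in aged libraries (SD, n = 6), the small spread in the latter being that of regions without a call. The change was -1.07 ± 0.21 (SE, limma adjusted p = 0.00455), with every aged value that of a region without a call. With regions called in at least 1 list tested, the adjusted p was 0.0133. The pattern of 6 young and 0 aged calls was found in 0.346% of all regions tested and in 1 of these 59. Values without overlap between the ages were found in 2 of them and in 3.88% of all regions.

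Within a genotype the change was -1.14 in WT (adjusted p = 0.0558) and -0.995 in Mlkl-/- (adjusted p = 0.0979), neither of which passed the threshold. The difference between them was 0.15 ± 0.43 (SE, limma adjusted p = 0.977), an error too wide to call the genotypes alike. Every aged value was that of a region without a call. The difference therefore rests mainly on the young values (0.60 in WT, 0.43 in Mlkl-/-). It cannot show whether the change with age differed by genotype. The length of the list moved with age. As a share of the regions in its own list, the rank was 52.8, 36.0 and 88.2% for Young WT and 48.6, 59.3 and 87.3% for Young Mlkl-/-, against 95, 89.6 and 70.8% for Aged WT and 98.8, 81.8 and 79.2% for Aged Mlkl-/-. On that scale the ages overlapped, since 2 young libraries, Young WT 3 and Young Mlkl-/- 3, lay among the aged ones. With the list length as a covariate the change was -1.09 (adjusted p = 0.0622), with lists of unequal length -0.61 (adjusted p = 0.0661) and with scores of at least 5 -0.58 (adjusted p = 0.198). With the Y gene summits as a covariate it was -1.06 (adjusted p = 0.0319), and over the 9 libraries without such summits -1.05 (adjusted p = 0.0245). The latter fit has 1 library of Young Mlkl-/-, which is assumed to vary like those of the other groups. These 2 fits were added after the data were seen. The direction was kept in all of these fits and the call in none of them. Without Young WT 1, Young WT 2, Young Mlkl-/- 1, Aged WT 1, Aged WT 3 or any of the 3 Aged Mlkl-/- libraries the call was also lost, at adjusted p of 0.0104 to 0.0146 and changes of -1.08 to -0.99.

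The highest summit of this region was not at the same place in every list. Counted from the highest-ranked summit it lay at -571 to 32 bp, with a median of -209.5 bp, and within 100 bp of it in 5 of 12 lists. In young lists it lay at 29, 0, -537, 21, -92 and -497 bp. In aged lists it lay at -571, -246, -557, -173, 32 and -439 bp. The rank of this merged region thus came from different positions in different lists. Whether the position moved with age was not tested. Within 100 bp of the highest-ranked summit none of the GATA, ETS and RUNX words was present. The whole region held a GATA word on the minus strand at -163 to -158 bp, shown in capitals above, and an AGATAA at -834 to -829 bp that overlaps a RUNX word at -830 to -824 bp.

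**Figure D2:**
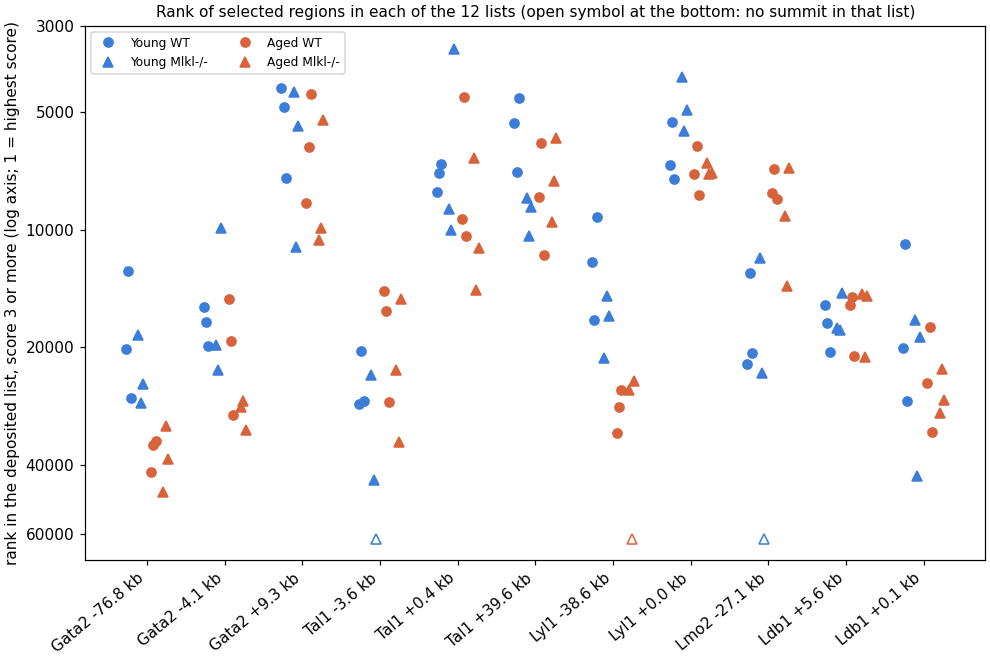
Rank of 11 regions in each of the 12 deposited lists, on a log axis with the highest-scoring region at the top. Circles are WT and triangles Mlkl-/- libraries, blue young and orange aged, and an open symbol means no summit in that list. At Gata2 -76.8 kb the young ranks run from 12756 to 27783 and the aged ranks from 31852 to 46863, while at Gata2 +9.3 kb they run from 4331 to 11034 and from 4499 to 10588. Lists differ in length.

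The intronic Gata2 region at +9.3 kb (chr6:88202905-88203635) held the highest ranks at this gene and did not pass with age or genotype. It lies 0.19 kb from the position of the +9.5 element, an intronic enhancer known to be required for the emergence of HSCs. Its rank was 4331, 4834 and 7370 for Young WT and 4444, 11034 and 5422 for Young Mlkl-/-, against 8547, 6138 and 4499 for Aged WT and 10588, 9884 and 5225 for Aged Mlkl-/-. The 4 groups overlapped. It was called in all 12 lists, and its normal score was 1.38 ± 0.21 in young and 1.27 ± 0.20 in aged libraries (SD, n = 6). The change with age was -0.11 ± 0.13 (SE, limma adjusted p = 0.696).

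The sequence printed for this region held 1 GATA-E-box composite, CATCTGCAGCCGGTAGATAA, whose last base is 1 bp before the highest summit. The highest summits of all 12 lists lay within 50 bp of the highest-ranked one, from -50 to 0 bp, with a median of -37.5 bp. The composite lies at -20 to -1 bp on the same scale. The summits in this region were thus more tightly placed than those at -76.8 kb, and no test of that spread was run.

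Other named positions at Gata2 were less regularly called than that at +9.3 kb. The -3.9 element was matched by the region at -4.1 kb (chr6:88189261-88190139), which lies in an intron of the noncoding gene Gm38708. All 6 young lists and 5 of the aged lists of equal length called it. Its rank ran from 9905 to 22801 with a median of 18467.5 in young and from 15062 to 32577 with a median of 27887 in aged lists, and the ages overlapped. The change was -0.43 ± 0.21 (SE, adjusted p = 0.234). No region had its highest summit within 1 kb of the -2.8 or the -1.8 position. Neither annotated start of Gata2 lay inside a region. The nearest region, at +4.9 kb and 427 bp downstream of the internal start, was present in 4 deposited lists and 2 lists of equal length.

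No other Gata2 region passed. The highest change with age was at -27.6 kb (chr6:88165981-88166549), 0.35 ± 0.34 (SE, adjusted p = 0.603), with calls in 3 young and 4 aged lists. The largest difference with genotype was at -69.8 kb (chr6:88123588-88124503), -0.28 ± 0.25 (SE, adjusted p = 0.877), and it was 0.0456 over the 9 libraries whose file names share a tag. Changes with age at the 10 regions tested ran from -1.07 to 0.35, and 5 were above 0. Of the 9 Gata2 regions not tested, 3 were present in 1 deposited list only.

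At Tal1, 8 of 17 regions were called in all 12 lists of equal length, beside 21.9% of all regions. Among the 8 were regions at the starts of the other genes Cmpk1, Stil and Pdzk1ip1. None of the 15 regions tested passed with age. The lowest adjusted p was 0.232, and the changes ran from -0.44 to 0.36 with 9 above 0. The outermost annotated start of Tal1, but not its internal starts, lay in the region at +0.4 kb (chr4:115056387-115057396). It was called in all 12 lists and ranked 3443 to 10014 in young and 4558 to 14226 in aged lists, with a change of -0.14 ± 0.14 (SE, adjusted p = 0.62) that was 0.0265 with the list length as a covariate. The highest ranks in the Tal1 window belonged to the region at -56.4 kb, at the start of Stil, a gene of centriole duplication. Its median rank was 786.

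The +40 element of Tal1 is known as an enhancer of erythroid cells. The matching region at +39.6 kb (chr4:115095539-115096929) lies beyond the neighbouring gene Pdzk1ip1, 7266 bp downstream of that gene's start, and was called in all 12 lists. It ranked 4592 to 10376 with a median of 7696 in young and 5802 to 11596 with a median of 7870 in aged lists. The change was -0.06 ± 0.11 (SE, adjusted p = 0.815), and 0.013 with the list length as a covariate. It carried 34 summits over the 12 lists, and the highest of each list had a median position of -155 bp. A GATA-E-box composite on the minus strand, CAGGTGGGAGCTGGCGATAA, spans -158 to -139 bp there, and a TGATAA lies at -13 to -8 bp.

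The -4 element of Tal1, known from endothelium and blood progenitors, was matched by the region at -3.6 kb (chr4:115052434-115053124). It was called in 4 young and 5 aged lists of equal length. Its rank was 27929, 20404 and 27442 in Young WT and 23569 and 43751 in Young Mlkl-/-, where it was absent from the list of Young Mlkl-/- 3. The ranks were 14358, 16094 and 27588 in Aged WT and 22914, 35027 and 14995 in Aged Mlkl-/-. The ages overlapped (0.35 ± 0.27, SE, adjusted p = 0.484), and so did the genotypes (-0.49 ± 0.27, SE, adjusted p = 0.769), the latter being the largest genotype change at Tal1. With scores of at least 5 that genotype change was -0.0812. The highest change with age at this gene was at +45.5 kb (0.36 ± 0.30, SE, adjusted p = 0.523) and the lowest at +6.9 kb in a coding exon (-0.44 ± 0.21, SE, adjusted p = 0.232).

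Lyl1, the close relative of Tal1, lies among other genes, and 5 of its 19 regions were at their starts. Its own start lay in the region at +0.0 kb (chr8:84701235-84701930), with the highest summit in the UTR, 35 bp from the start. It ranked 6819, 5295 and 7391 for Young WT and 4070, 5570 and 4942 for Young Mlkl-/-, against 7183, 6091 and 8164 for Aged WT and 6757, 7208 and 7145 for Aged Mlkl-/-. The ages overlapped, and the change was -0.13 ± 0.10 (SE, adjusted p = 0.506). The next region upstream, with its highest summit at -1408 bp (chr8:84699799-84700338), had a median rank of 4642.5 and was called in all 12 lists. Its window, printed above, held none of the GATA, ETS and RUNX words. The highest ranks in the Lyl1 window were at +36.4 kb, in an intron of Nfix, with a median rank of 2864.5.

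The lowest change with age in the Lyl1 window was at -38.6 kb (chr8:84662089-84663144), 17 bp upstream of the start of Ier2, an immediate early gene. Its rank was 12097, 17010 and 9289 in Young WT and 21320, 14767 and 16617 in Young Mlkl-/-. It was 33091, 28377 and 25769 in Aged WT and 25756 and 24411 in Aged Mlkl-/-, with no summit in Aged Mlkl-/- 2. The young and aged ranks did not overlap. The region was called in 6 young and 4 aged lists of equal length, and its normal score was 0.81 ± 0.21 in young and 0.04 ± 0.46 in aged libraries (SD, n = 6). The change of -0.77 ± 0.23 (SE, adjusted p = 0.0474) did not pass the threshold of 0.01. As a share of the own list the rank ran from 30.3 to 58.5% in young and from 49.9 to 75.3% in the 5 aged lists with a summit, which overlapped. The highest change in this window was at -13.6 kb, at the start of Nacc1 (0.30 ± 0.29, SE, adjusted p = 0.586).

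At Lmo2 the largest difference between the ages was positive. The intergenic region at -27.1 kb (chr2:103930636-103931379) ranked 22095, 12920 and 20691 in Young WT and 11808 and 23221 in Young Mlkl-/-, and had no summit in Young Mlkl-/- 3. It ranked 8055, 6973 and 8349 in Aged WT and 9207, 13919 and 6925 in Aged Mlkl-/-. The ages overlapped by 1 aged library, Aged Mlkl-/- 2. The normal score was 0.47 ± 0.54 in young and 1.16 ± 0.16 in aged libraries (SD, n = 6). The change of 0.69 ± 0.20 (SE, adjusted p = 0.0438) did not pass the threshold, and with the list length as a covariate it was 0.33 (adjusted p = 0.549). Over the 9 libraries without Y gene summits it was 1.06 (adjusted p = 0.0134). That fit was added after the data were seen and has 1 library of Young Mlkl-/-, Young Mlkl-/- 3, which has no summit here. An ETS word lay 67 bp after the highest summit, and 3 E-boxes lay within 100 bp of it. The whole region also held a RUNX word at 124 to 130 bp and a TGATAA at 420 to 425 bp.

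The region of highest rank at Lmo2 was at -12.0 kb (chr2:103945463-103946250). It was called in all 12 lists, with ranks of 4848 to 10588 in young and 7154 to 13809 in aged lists. The highest summit of every list lay within 25 bp of the highest-ranked one, from -10 to 25 bp. An AGATAA at 31 to 36 bp and an ETS word at 59 to 65 bp on the minus strand lay beside them. The neighbouring region at -12.9 kb (chr2:103944793-103945380) had the lowest change at this gene (-0.40 ± 0.28, SE, adjusted p = 0.443) and was called in 5 young and 3 aged lists. No region held an annotated start of Lmo2. The nearest to one, at +11.6 kb (chr2:103969251-103969892), had its highest summit at -563 bp from the closest start inside the gene and was called in 4 young and 4 aged lists. It also had the largest genotype change at Lmo2 (0.40 ± 0.29, SE, adjusted p = 0.85).

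Ldb1, whose product dimerises to hold the complex together, had the fewest regions. Its annotated starts lay in 2 regions. The region at +5.6 kb (chr19:46039306-46039904), over the internal starts, ranked 14530 to 20501 with a median of 17579 in young and 14612 to 21230 with a median of 15185.5 in aged lists. The region at +0.1 kb (chr19:46044787-46045689), over the outermost starts, ranked 10854 to 42778 in young and 17689 to 32865 in aged lists. Their changes with age were 0.02 ± 0.15 (SE, adjusted p = 0.964) and -0.20 ± 0.27 (SE, adjusted p = 0.739). The latter was the lowest change among the 9 regions tested, and the highest was 0.10 ± 0.33 at +30.5 kb (SE, adjusted p = 0.892). With the list length as a covariate the changes at +5.6, +0.1 and +30.5 kb had the opposite sign, at -0.0034, 0.22 and -0.54, and without Young Mlkl-/- 3 that at +30.5 kb was -0.11. Of the 5 regions called in all 12 lists, 4 lay at the starts of Armh3, Hps6, Pprc1 and Nolc1. The Nolc1 start, at -30.7 kb, ranked highest, with a median of 2892.5.

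**Figure D3:**
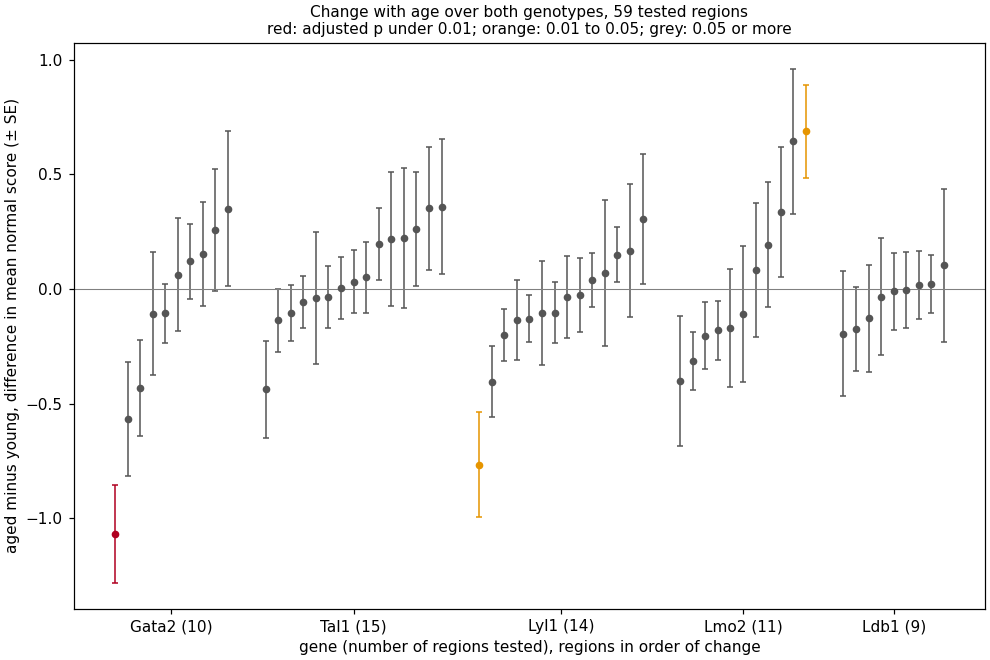
Change with age over both genotypes at the 59 tested regions, by gene and in order of size. The y axis is the aged minus young difference in mean normal score, and bars are standard errors. The red point is Gata2 -76.8 kb (-1.07), the only region under an adjusted p of 0.01, and the 2 orange points are Lyl1 -38.6 kb (-0.77) and Lmo2 -27.1 kb (0.69), between 0.01 and 0.05. Gata2 -76.8 kb met the filter for testing through young lists only, so that its p is a description.

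Loss of Mlkl moved none of the 59 regions past the threshold. Over both ages 0 regions passed (0% of all regions), and the lowest adjusted p was 0.764. At an unadjusted p under 0.05 there was 1 region (1.69%, beside 6.22% of all regions), namely Lyl1 +36.4 kb (chr8:84737600-84738139), with ranks of 662, 2499 and 446 for Young WT and 3980, 5199 and 1565 for Young Mlkl-/-, against 2220, 8432 and 2504 for Aged WT and 6458, 3225 and 5612 for Aged Mlkl-/-. The genotypes overlapped, and the change was -0.34 ± 0.15 (SE, limma adjusted p = 0.764). At 3 months 0 regions passed (0% of all regions). The lowest adjusted p was 0.867, and 1 region had an unadjusted p under 0.05 (1.69%, beside 5.37% of all regions). At 18 months 0 passed (0% of all regions). The lowest adjusted p was 0.871, and 1 region had an unadjusted p under 0.05 (1.69%, beside 5.1% of all regions). The difference in the age change between the genotypes passed in 0 regions (0% of all regions). Here the lowest adjusted p was 0.965, and 0 regions had an unadjusted p under 0.05, beside 4.8% of all regions. At Ldb1 the largest genotype change was 0.35 ± 0.26 at +3.1 kb (SE, adjusted p = 0.851).

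**Figure D4:**
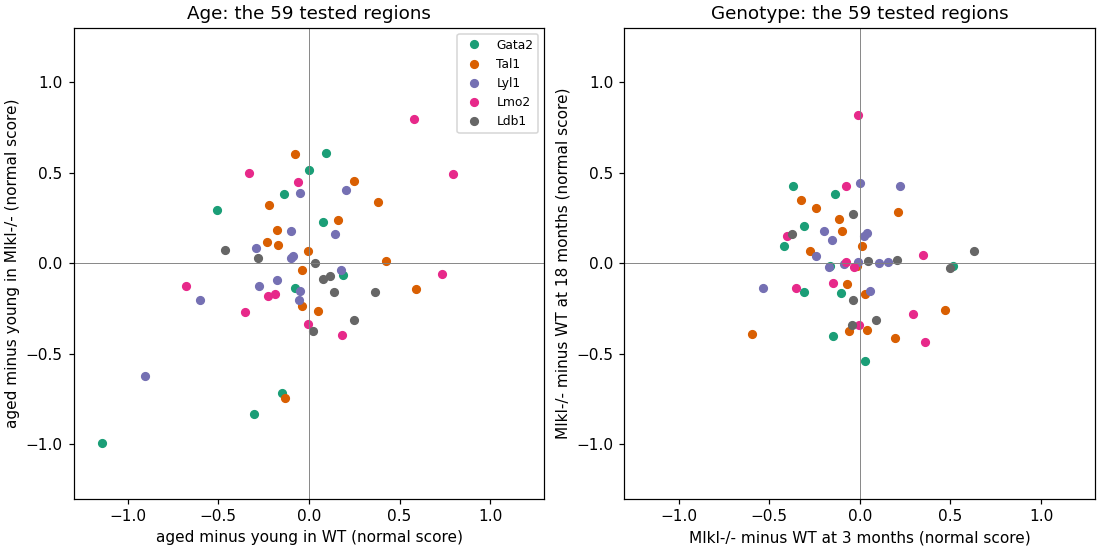
The 59 tested regions by genotype and by age. Left, aged minus young difference in mean normal score in WT (x) and in Mlkl-/- (y), and right, Mlkl-/- minus WT at 3 months (x) and at 18 months (y), each point a region coloured by gene. Gata2 -76.8 kb is the point at -1.14 and -0.995 on the left, and the genotype differences lie between -0.60 and 0.63 at 3 months and between -0.54 and 0.82 at 18 months.

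The words bound by these factors were counted within 100 bp of the highest summit. A GATA word was present in 13.6% of the 59 regions, beside 14.3% of all regions tested, and an E-box in 49.2%, beside 60.7%. The GATA-E-box composite was present in 3 of the 59 (5.08%), beside 0.837% of all. These were Gata2 +9.3 kb, Gata2 +60.3 kb and Lyl1 +29.5 kb in an intron of Nfix, whose median rank was 4657. The composite of Tal1 +39.6 kb lies beyond 100 bp and is not counted. An ETS word was present in 16.9%, beside 16.1%, and a RUNX word in 3.39%, beside 10.5%. A composite contains an E-box and may contain a GATA word. A match describes the letters only, and the counts were not tested.

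Genes that work with the complex were examined within 10 kb of their bodies. At 19 partners and regulators 100 regions were tested, and 2 passed with higher and 0 with lower values in aged libraries, where 2.72% of all regions passed. Their median change was -0.01. A region 37.2 kb downstream of the start of Gata3, a GATA factor of T cells (chr2:9852527-9853097), had calls in 1 young list and all 6 aged lists of equal length, and the same in the deposited lists. Its normal score differed by 1.12 ± 0.24 (SE). The other lay 181 kb downstream of the outermost start of Runx1, a factor needed for the emergence of HSCs (chr16:92644536-92645160), with calls in 0 young and all 6 aged lists of equal length (1.23 ± 0.21, SE), while the deposited lists held it in 5 of 6 young and all 6 aged. Both regions met the minimum of 3 lists through aged lists only, so that their differences are given as a description with no test. Between 0.01 and 0.05 the adjusted p (limma) went with differences in both directions. Values were lower in aged libraries at regions of Zfpm1 (-1, calls in 5 young and 0 aged lists) and Id3 (-0.97, 6 and 1). The same held for Fli1 (-0.93, 5 and 0) and Cbfa2t3 (-0.44, all 12 lists). They were higher at regions of Gata3 (0.81, 2 and 6) and Ssbp2 (0.52, all 12 lists). At 12 known targets of the complex 30 regions were tested, among them those of Kit, Gfi1b and Hhex, and 0 passed with age (median change -0.16). The region at the start of Gfi1b differed by -0.91 ± 0.23 (SE), with calls in 5 young and 0 aged lists of equal length. The deposited lists held it in 6 young and 4 aged. It met the minimum through young lists only, so that its difference is a description with no test. The region at -8.03 kb from the start of Klf1, called in all 12 lists, differed by 0.52 ± 0.13 (SE, limma adjusted p = 0.0218). Within the same 10 kb the genes of the complex themselves had 15 regions tested, of which 0 passed. With genotype, 0 regions of these lists passed.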

How the data were processed

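ATAC-seq had been done on sorted bone marrow HSCs, and the 12 libraries were grouped by the genotype and age that the labels give. The authors aligned 70 bp single reads of size-selected fragments to mm10 with Bowtie2 2.5.3 and called peaks in each library separately with MACS2 2.2.7.1, and the submitters' notes also name bedtools 2.31.0 and edgeR 3.30.3. The deposited lists give summit positions and the -log10 of the authors' q-value. Since depth and background differ between libraries and enter the score, it was used only to filter and rank within a list. The lists carry no counts, and neither depth nor counting error is known. The precision rests on the number of libraries, which are pools of mice, so that p-values measure the spread between pools.

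Summits with a score of at least 3 (q of 0.001, the cutoff of the study's methods) were kept, since the deposited lists run down to scores of 2 to 2.008 and so hold summits beyond that cutoff, on chromosomes 1 to 19, X and Y. No summit lay beyond a chromosome end (0). Windows of 250 bp each side were merged over the 12 lists into 71006 regions. Each list was cut to its 35714 best summits, regions were ranked by highest score, and ranks were turned into normal scores, with regions not called tied at the lowest rank. Regions called in at least 3 lists of equal length were compared with limma 3.58.1 in R 4.3.3 (1 fit of 4 group means with a trend, 7 contrasts, Benjamini-Hochberg, adjusted p under 0.01). The calculation was tested on simulated data. In these every region had a score in every list, so that regions without a call were not covered. Annotation was GENCODE basic for mm10 and sequence the RefSeq copy of the same assembly (GRCm38), read with pysam 0.24.0 under Python 3.11.15.

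Regions named singly are those past the threshold, those holding a start, those within 1 kb of a named element, and for each gene the highest and lowest change with age, the largest genotype change and the highest mean. Lyl1 -1.4 kb, Gata2 +4.9 kb and the 2 further composites were added after values were seen. The genes, lists and rules were chosen with earlier results of these data known. Alternatives were other score minimums, list lengths, window sizes and list minimums, percentiles, another threshold, a replicate block, list length or Y gene summits as covariates, the 9 libraries whose file names share an unexplained tag, separate fits, another seed and each library left out. Some items that these rules and lists name are not reported here.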

Additional observations from a re-analysis of the deposited data

Results flagged for a closer look

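The comparisons used scores of at least 3. Below that score, 3 summits lay in the windows of the 5 genes and outside every region, 1 each in Aged WT 3, Aged Mlkl-/- 2 and Aged Mlkl-/- 3, while the young lists had 0. They are listed because these summits belong to data that no comparison used.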

How the results depend on the processing

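The count of regions past the threshold with age was 1. It was 0 with scores of at least 5, with lists of unequal length, with regions called in at least 1 list, with the replicate block, with list length as a covariate, over the 9 libraries with the tag, with the Y gene summits as a covariate and over the 9 libraries without them, and 3 at an adjusted p under 0.05. With 1 library left out at a time it was 0 to 1, with changes at Gata2 -76.8 kb of -1.14 to -0.99. The call there was kept without Young WT 3, Young Mlkl-/- 2, Young Mlkl-/- 3 or Aged WT 2 and lost without each of the 8 others (adjusted p = 0.0104 to 0.0146, limma). Gata2 -76.8 kb met the minimum of lists through young lists only, so that these values are a description and no support for a call. For the other comparisons the count was 0 in every alternative run. The numbers did not pair the libraries (correlations of same-numbered deviations -0.301 to 0.128), and with the replicate block Gata2 -76.8 kb had an adjusted p of 0.0105. Of 592 changes compared across settings 558 kept their direction and side of the threshold and 16 turned their sign, all at regions past no threshold, and the cause was not tested. With list length as a covariate the age change was 0.0265 at Tal1 +0.4 kb, -0.0034 at Ldb1 +5.6 kb, 0.22 at Ldb1 +0.1 kb, 0.013 at Tal1 +39.6 kb and -0.54 at Ldb1 +30.5 kb. Over the 9 libraries with the tag it was 0.0092 at Tal1 +39.6 kb, and the genotype change at Gata2 -69.8 kb was 0.0456. Over the 9 libraries without Y gene summits, with 1 of Young Mlkl-/-, it was -0.0118 at Ldb1 +5.6 kb. With 1 library left out at a time the age change was -0.0128 to 0.0649 at Ldb1 +5.6 kb and -0.11 to 0.30 at Ldb1 +30.5 kb. The number of regions was 26 within 10 kb, 38 by nearest coding start, 96 with windows of 100 bp, 86 with all scores and 77 with scores of at least 5. Depth was unknown, and a region missing from a list may lie just under its cutoff.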
